A study of Homo sapiens with 10 samples.

Results

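SREBF2 and 4 genes that act with it in the cell's response to sterols, SREBF1, MBTPS1, SCAP and INSIG1, were followed through peaks of DNA methylation in HEK293T, a line of human embryonic kidney cells. They are 5 of 19974 protein-coding genes. SREBF2 and MBTPS1 were chosen by their measured peak numbers, since both were among the few genes with at least 2 times as many peaks in the knockdown list as in its control list, and the other 3 were added as their partners in the pathway. The knockdown and control peak numbers of SREBF2 and MBTPS1 are therefore given as a description. Methylated DNA was captured with an antibody against 5-methylcytosine and sequenced (MeDIP-seq), and a peak is a stretch where captured fragments pile up above the caller's background. There were 10 samples from 5 conditions, each with a captured and an input library: the conditions are EV and KD, and WT with the knockouts named K non-rep KO and also K rep KO. KD is the knockdown that the series' design text names as that of KCNQ1OT1_K; KCNQ1OT1 is a long non-coding RNA of the imprinted KCNQ1 domain. What EV, K, rep and non-rep stand for is not spelled out in the labels, which also do not say whether a knockout line is 1 clone. KD was set against EV, and both knockouts against WT, a pairing read from how the design text lists them and not stated in the labels. Each condition has 1 peak list, so no value has a replicate, no p-value is given, and a difference between lists cannot be told apart from a difference between libraries. The intervals given with ratios are exact 95% counting intervals (Clopper-Pearson).

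SREBF2 and SREBF1 encode the membrane-bound transcription factors SREBP2 and SREBP1. SREBP2 mainly drives genes of cholesterol synthesis and uptake, and SREBP1 mainly genes of fatty acid synthesis. SCAP escorts both from the endoplasmic reticulum to the Golgi when sterols are low, and INSIG1 holds the complex back when sterols are plentiful. In the Golgi the site-1 protease encoded by MBTPS1 makes the first cut that frees the factors, and MBTPS2 encodes the protease of the following cut. Cytosine methylation in vertebrates lies mostly at CpG, is dense over many gene bodies and is usually low at CpG-rich promoters. A MeDIP peak therefore reports dense methylated CpG, and says nothing by itself of how strongly a gene is transcribed.

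The start regions of SREBF2 and MBTPS1 are shown because no list had a peak over them while peaks stood further inside both genes. They run from 250 bases before to 50 bases after the gene start in RefSeq (GRCh38.p14), 5′ to 3′ on the strand of the gene, with every CpG in capitals. The window of SREBF2, on the plus strand at chr22:41832855-41833154, holds 31 CpG and has 68.0% G or C. The window of MBTPS1, on the minus strand at chr16:84116893-84117192, holds 36 CpG and has 72.3% G or C.
SREBF2: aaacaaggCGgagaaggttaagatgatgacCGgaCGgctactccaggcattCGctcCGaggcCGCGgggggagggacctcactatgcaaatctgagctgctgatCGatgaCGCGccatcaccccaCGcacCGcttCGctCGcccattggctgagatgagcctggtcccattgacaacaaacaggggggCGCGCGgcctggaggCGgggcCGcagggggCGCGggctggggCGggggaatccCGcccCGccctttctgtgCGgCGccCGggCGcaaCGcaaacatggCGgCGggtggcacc
MBTPS1: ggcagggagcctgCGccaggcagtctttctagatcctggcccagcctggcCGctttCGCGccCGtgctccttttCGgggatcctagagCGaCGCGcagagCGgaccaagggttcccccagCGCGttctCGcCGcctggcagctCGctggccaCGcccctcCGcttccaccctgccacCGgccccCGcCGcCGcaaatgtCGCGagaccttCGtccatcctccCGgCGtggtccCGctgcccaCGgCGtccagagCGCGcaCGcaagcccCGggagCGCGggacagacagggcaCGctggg

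The SREBF2 window also holds the letters TCACNCCAC, a form of the sterol regulatory element that SREBPs are known to bind. The site is shown with 10 bases on both sides, at chr22:41832962-41832990 on the plus strand, with the match in capitals; its first base is at −133 from the gene start.
SREBF2 site: tgacgcgccaTCACCCCACgcaccgcttc
Searched on both strands, this motif was in 186 of 15812 promoter windows of protein-coding genes (1.18%), in none of the windows of the other 4 genes, and in 0 of 59 windows of other genes of the pathway. A match is a description of the letters only.

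SREBF2 and SREBF1 each host a microRNA in an intron, known to act on transcripts of cholesterol export, and these are shown because the host genes were compared for methylation around them. The mature sequences are from RefSeq, with the seed (bases 2 to 8) in capitals.
hsa-miR-33a-5p: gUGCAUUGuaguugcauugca
hsa-miR-33b-5p: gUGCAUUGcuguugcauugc
Both share the seed UGCAUUG. The hairpin of the first lies within SREBF2 at chr22:41900944-41901012 on the plus strand, and that of the other within SREBF1 at chr17:17813836-17813931 on the minus strand.

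The lists held 30732 (WT) to 87815 (EV) peaks on chromosomes 1 to 22 and X, with 53919 in KD, 53396 in the K non-rep KO and 59098 in the K rep KO list. They covered 64.0 Mb in EV, 38.7 Mb in KD, 31.2 Mb in WT, 39.6 Mb in K non-rep KO and 44.8 Mb in K rep KO. The median peak was 748 bp wide in WT and 505 to 522 bp in the other lists, so WT held fewer and wider peaks. The lists hold no read counts, but the number of fragments over each summit could be recovered, with a median of 10 to 14 per list. Coordinates are GRCh38, a gene region is the gene body with 2 kb on both sides, and fold enrichment and −log10 q of a peak are the authors' values. A q value is a p-value corrected by the caller for the many places it looked at. The peaks cannot tell whether the cells are HEK293T or whether the knockdown or knockouts worked.

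SREBF2 spans bases 41833105 to 41907305 of chromosome 22 on the plus strand. It had 6 peaks in EV, 12 in KD, 1 in WT, 4 in the K non-rep KO and 6 in the K rep KO list. KD was the highest and WT the lowest of the 5 lists. All of these peaks lay in the gene body. The length covered had another order, with 7638 bp in EV, 6452 bp in KD, 3707 bp in WT, 3906 bp in the K non-rep KO and 4930 bp in the K rep KO list. The KD list thus had more peaks than EV in SREBF2 but less covered sequence. Its peaks were also lower: the median fold enrichment was 3.75 in KD and 5.86 in EV, and the summits held 7 to 15 fragments in KD and 11 to 28 in EV.

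The 29 SREBF2 peaks of the 5 lists fell into 13 separate regions, of which 7 had a peak in 1 list and 1 had a peak in all 5. The region in all lists, at bases 41849810 to 41854030, starts 16.7 kb after the gene start and is the broadest of the gene. In EV it was a single peak of 4195 bp with a fold enrichment of 7.23 and 28 fragments at the summit. In WT it was a single peak of 3707 bp with a fold enrichment of 6.86 and 24 fragments, and was the only WT peak of SREBF2. In KD the same region held 3 separate peaks of 508, 788 and 686 bp with fold enrichments of 3.60, 3.99 and 2.46. K non-rep KO had 1 peak of 2312 bp there (fold enrichment 3.26), and K rep KO had peaks of 3016 and 356 bp (4.45 and 4.24). This stretch was therefore broad and high in both control lists, and broken up or lower in the perturbed ones.

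KD had a peak in 10 of the 13 SREBF2 regions and EV in 6, and 5 regions were common to both. Of the 5 regions with a KD and no EV peak, 4 had a peak in no other list; they begin 2.23, 49.2, 62.8 and 69.5 kb after the gene start. The fifth begins 64.9 kb after the start and had the highest fold enrichment of the KD peaks of the gene, 5.99 with 13 fragments. K non-rep KO had a peak there too, with a fold enrichment of 4.37. Regions beginning 34.1 and 58.1 kb after the start had a peak in every list but WT. The highest fold enrichment of SREBF2 in any list, 8.11 with 19 fragments, stood in K rep KO alone, 26.9 kb after the start. The KD peaks were thus spread from near the start to the end of the gene.

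**Figure D1:**
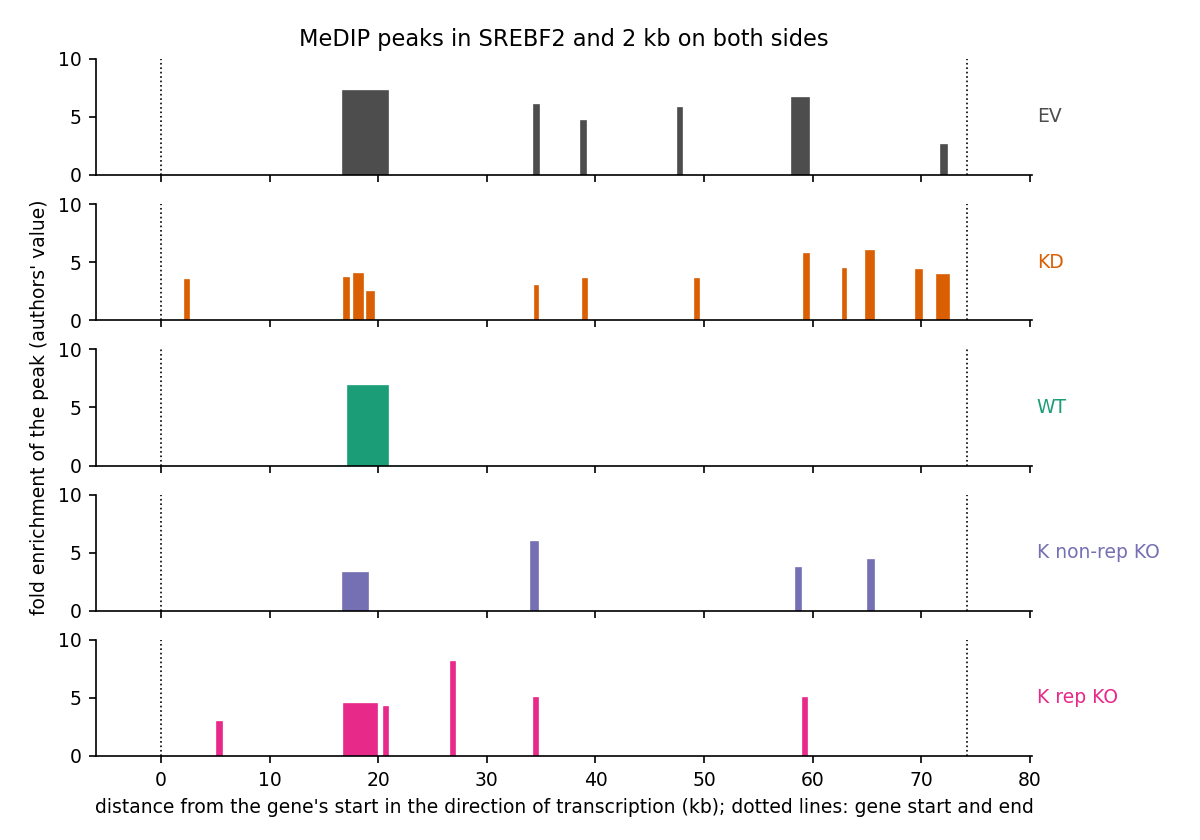
Peaks of SREBF2 in the 5 lists along the gene, with the distance from the gene start in kb on the horizontal axis and the authors' fold enrichment on the vertical axis; the width of a bar is the width of the peak and dotted lines mark the gene's start and end. The broad peak of EV (4195 bp) and WT (3707 bp) stands as 3 narrow peaks in KD, and KD has the most bars (12).

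SREBF1 spans bases 17811334 to 17836986 of chromosome 17 on the minus strand. It had 1 peak in EV, 4 in KD, 0 in WT, 1 in the K non-rep KO and 2 in the K rep KO list, which covered 591, 2762, 0, 615 and 2470 bp. As in SREBF2, KD was the highest list and WT the lowest. Here the covered length followed the peak number. A region at bases 17832341 to 17834825, which begins 2.16 kb after the gene start, had a peak in every list but WT. Its fold enrichment was 5.51 in EV, 6.85 in KD, 3.99 in the K non-rep KO and 6.88 in the K rep KO list, with 23, 15, 12 and 25 fragments at the summit. The other 3 KD peaks lay at the far end of the gene, and 1 of them, in the flank past the gene end, overlaps RAI1 and had a K rep KO peak over it.

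No list had a peak over the hairpin of miR-33a or miR-33b. From the miR-33a hairpin in SREBF2 the nearest peak was 3886 bp away in EV, 1639 bp in KD, 14255 bp in WT, 2194 bp in the K non-rep KO and 8336 bp in the K rep KO list. From the miR-33b hairpin in SREBF1 it was 14179 bp away in EV, 551 bp in KD, 43197 bp in WT, 16830 bp in the K non-rep KO and 2920 bp in the K rep KO list. The KD peaks came nearest to both hairpins. KD was also the list with the most peaks in both host genes, and these distances are not independent of that number.

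MBTPS1 spans bases 84053763 to 84116942 of chromosome 16 on the minus strand. It had 3 peaks in EV, 9 in KD, 1 in WT, 4 in the K non-rep KO and 5 in the K rep KO list. The covered length inside the gene region was 2712 bp in EV, 3270 bp in KD, 915 bp in WT, 1722 bp in the K non-rep KO and 2073 bp in the K rep KO list. KD was the highest and WT the lowest on both measures. KD had 3 times the peaks of EV and 1.21 times the covered length. The median fold enrichment was 4.23 in KD and 5.34 in EV.

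Of the 10 separate regions of MBTPS1, 5 had a KD and no EV peak. K rep KO had a peak in 3 of those 5, at bases 84060409 to 84060932, 84062268 to 84062591 and 84078030 to 84078764, and no other list had one there. In the third of these the fold enrichment was 3.90 in KD and 7.58 in K rep KO, with 12 and 16 fragments at the summit. WT shared 1 further KD region, at bases 84098701 to 84099615, with fold enrichments of 2.70 in KD and 3.78 in WT. Near the gene start, a region at bases 84113867 to 84115177 had a peak in EV (fold enrichment 5.34), KD (4.28) and K non-rep KO (4.45). MBTPS1 thus shared some of its KD regions with K rep KO, whereas in SREBF2 none of the 5 KD regions without an EV peak had a K rep KO peak.

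The flank past the end of MBTPS1 held the highest fold enrichment of every list but WT, in a region at bases 84050800 to 84053791. EV had 1 peak of 2168 bp there (fold enrichment 5.74, 35 fragments), and KD had 3 peaks of 1042, 325 and 553 bp (5.36, 4.50 and 4.16). K non-rep KO had peaks of 1263 and 528 bp (5.04 and 3.96) and K rep KO 1 peak of 1261 bp (9.15, 28 fragments). WT had a peak at the same place, but it lay 2149 bp from the gene, just outside the 2 kb limit, with a fold enrichment of 4.77. As in the broad region of SREBF2, a single EV peak stood where KD had 3.

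**Figure D2:**
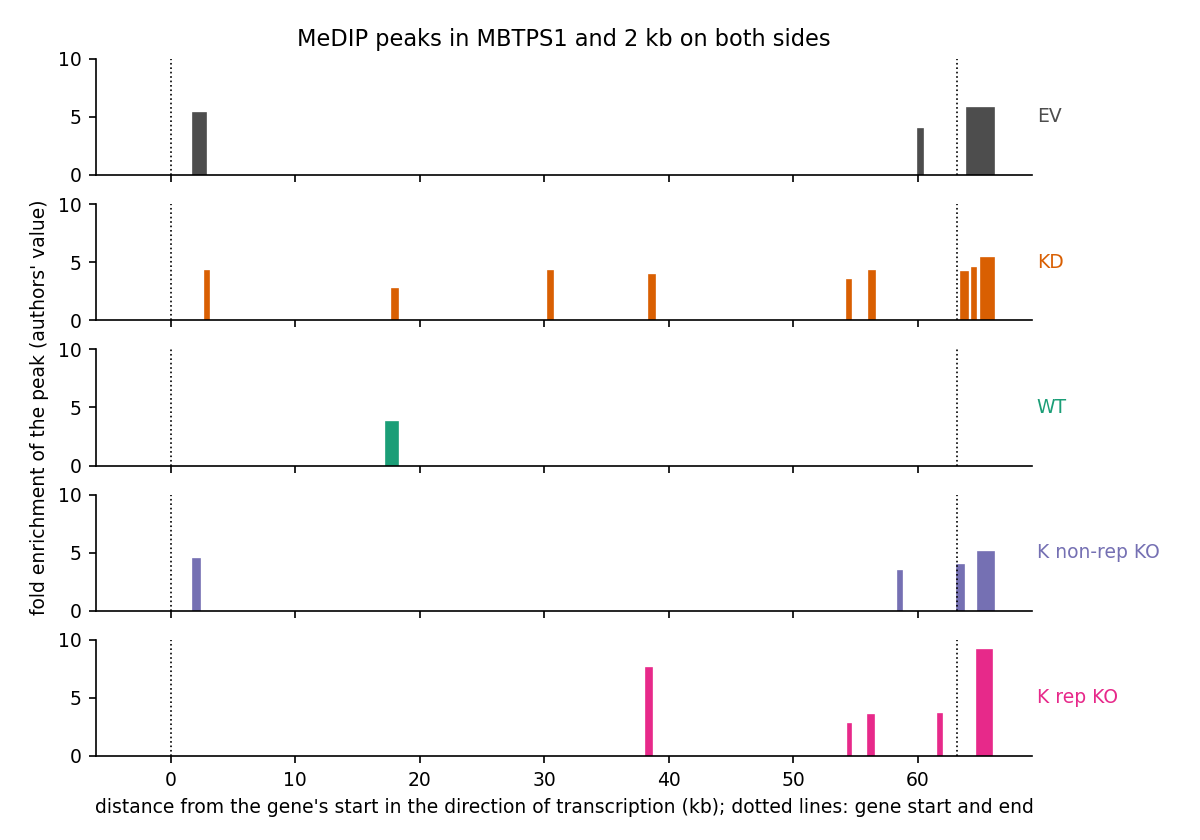
Peaks of MBTPS1 in the 5 lists along the gene, with the distance from the gene start in kb in the direction of transcription and the authors' fold enrichment; bars are whole peaks at their true width and dotted lines mark the gene's start and end. KD has 9 bars, 3 of them past the gene end where EV has 1, and K rep KO shares 3 of the regions that KD has and EV lacks.

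SCAP spans bases 47413681 to 47477127 of chromosome 3 on the minus strand and had another order of lists. It had 9 peaks in EV, 3 in KD, 3 in WT, 8 in the K non-rep KO and 3 in the K rep KO list, which covered 6767, 2694, 2701, 4895 and 3255 bp. EV and K non-rep KO were high, and the other 3 lists were level in number. Of 14 separate regions, EV had a peak in 9 and KD in 3, and 7 had an EV and no KD peak. These SCAP values did not enter the rule of at least 2 times as many KD peaks that took in SREBF2 and MBTPS1.

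A single region of SCAP, at bases 47472159 to 47474210 and beginning 2.92 kb after the gene start, had a peak in every list. Its width was 1977 to 2051 bp in the 5 lists, so its borders hardly moved. The fold enrichment was 5.98 in EV, 7.37 in KD, 12.3 in WT, 19.1 in the K non-rep KO and 9.70 in the K rep KO list. The summit held 50, 35, 59, 44 and 59 fragments in that order. EV, the list with the most SCAP peaks, had the lowest fold enrichment at this site, with a caller's background of 7.52 fragments against 1.35 in K non-rep KO, the list with the highest. The fragments at the summit were spread far less than the fold enrichments.

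Upstream of SCAP, a region at bases 47478887 to 47481518 lay inside the 2 kb limit in EV and K non-rep KO (1760 and 1826 bp from the gene). The peaks of KD, WT and K rep KO at the same place lay just outside it, at 2402, 2541 and 2425 bp, with fold enrichments of 3.93, 7.79 and 8.25. All 5 lists thus had a peak upstream of SCAP, although only those of EV and K non-rep KO are counted. The flank past the end of SCAP overlaps PTPN23 and the upstream flank overlaps LOC105377073, so peaks there belong to both genes of a pair.

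**Figure D3:**
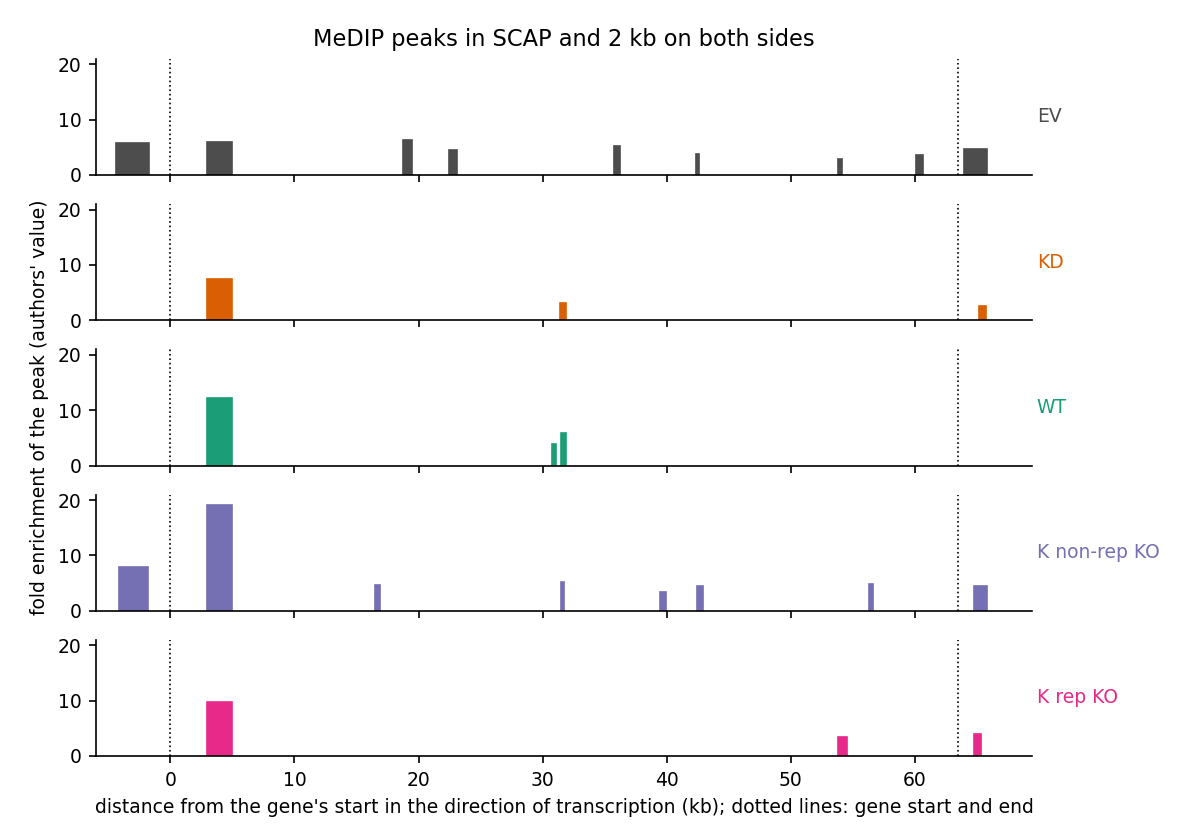
Peaks of SCAP in the 5 lists along the gene, with the distance from the gene start in kb in the direction of transcription and the authors' fold enrichment; bars are whole peaks counted in the gene region and dotted lines mark the gene's start and end. The same 1977 to 2051 bp peak near the start stands in all lists, tallest in K non-rep KO (19.1), while EV (9) and K non-rep KO (8) have the most bars.

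INSIG1 spans bases 155297878 to 155310235 of chromosome 7 on the plus strand and is the shortest of the 5 genes. It had 1 peak in EV and 1 in K rep KO, and none in the other 3 lists. The EV peak was 475 bp wide, near the end of the gene, with a fold enrichment of 4.78 and 12 fragments. The K rep KO peak was 606 bp wide, 1.46 kb before the gene start, with a fold enrichment of 4.53 and 10 fragments, and overlaps INSIG1-DT, a transcript on the other side of the start. The peaks did not overlap, so no region of INSIG1 had a peak in more than 1 list.

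**Figure D4:**
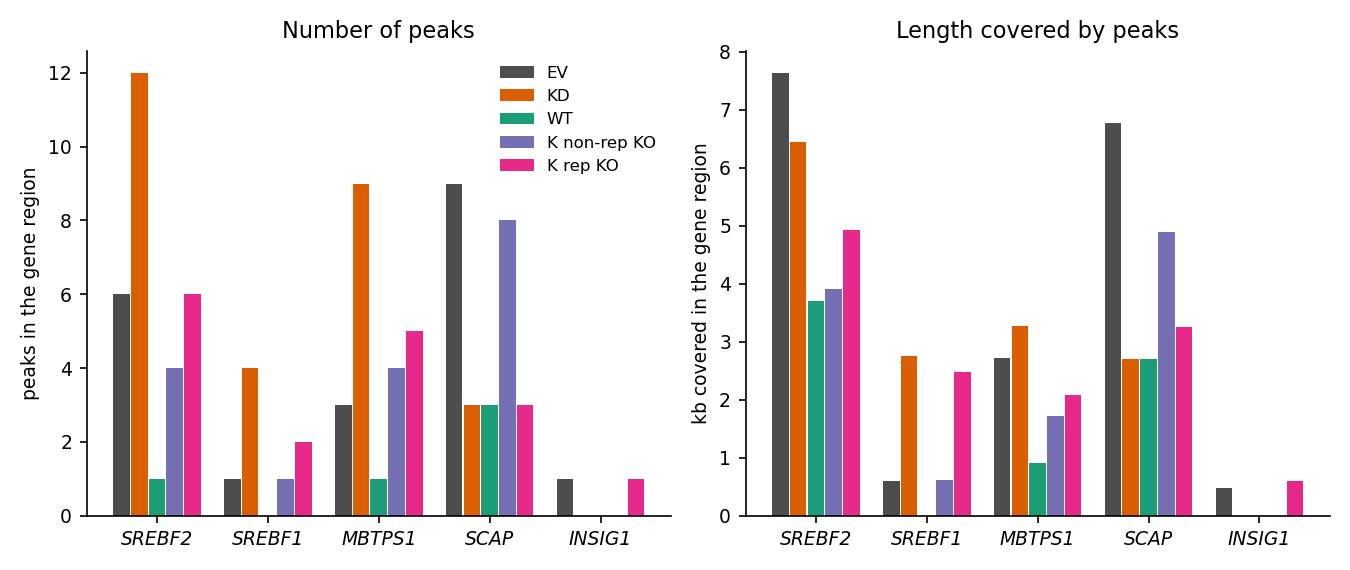
Number of peaks (left) and kb covered by peaks (right) in the gene region of each of the 5 genes, with 1 bar per list and no error bar since each condition has 1 list. KD has the tallest bar in number for SREBF2 (12), SREBF1 (4) and MBTPS1 (9), but in covered length EV stands above KD in SREBF2 (7638 against 6452 bp).

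Against EV, the 5 genes together had 28 peaks in KD and 20 in EV, a ratio of 1.40 (0.761 to 2.62), and an interval that includes equal numbers. The covered length had a ratio of 0.835. SREBF2, SREBF1 and MBTPS1 had more peaks in KD, and SCAP and INSIG1 fewer. Among 14544 protein-coding genes with a peak in either list, 14.4% had more peaks in KD and 67.0% fewer, and all protein-coding genes together had a ratio of 0.587. At least 2 times as many peaks in KD as in EV was seen in 10 (0.389%) of the 2574 genes that had 10 or more peaks over both lists. This threshold took in SREBF2 and MBTPS1, and, as these counts chose them, nothing is read from it. By log2((peaks + 1)/(peaks + 1)) of KD over EV, MBTPS1 had place 2 of these genes (1.32) and SREBF2 place 8 (0.89). Just inside the threshold stood PHF21A, with 8 against 4 peaks, and just outside PTAFR, with 11 against 6. Of the genes in the first 10 places, SREBF2 alone had a smaller covered length in KD than in EV.

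Fewer KD peaks of the 5 genes passed a strict threshold. With a −log10 q of at least 5, 13 of 20 EV peaks (65.0%) and 6 of 28 KD peaks (21.4%) were kept, against 42.2% and 29.5% of all peaks in protein-coding gene regions. The ratio of KD to EV for the 5 genes was then 0.462, where all protein-coding genes had 0.412; with a fold enrichment of at least 4 it was 0.933. The larger number of KD peaks in SREBF2 and MBTPS1 rested on peaks of low significance, with 2 strict KD peaks against 4 in EV for SREBF2 and 1 against 2 for MBTPS1. Of the 11 EV peaks of the 5 genes that a KD peak overlapped, 2 (18.2%) held more than 1 KD peak, the broad SREBF2 peak and that past the end of MBTPS1; over all protein-coding gene regions the share was 3.71%. Such a split raises the KD peak number on which both genes were chosen, so nothing is read from this share. With peaks of a list less than 1 kb apart joined into 1, KD still had more than EV, with 10 against 6 in SREBF2 and 7 against 3 in MBTPS1, and 22 against 20 in the 5 genes. With the EV list shortened to the length of KD by q, the 5 genes had 28 against 16.

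The knockouts were set against WT, lists that the threshold of KD over EV did not use. The 5 genes and the comparisons were still chosen with earlier results of these data known. K rep KO had 17 peaks in the 5 genes and WT 5, a ratio of 3.40 (1.2 to 11.8), beside 2.40 for all protein-coding genes. SREBF2, SREBF1, MBTPS1 and INSIG1 had more peaks in K rep KO, and SCAP had 3 in both; of 12023 protein-coding genes with a peak in either list, 73.5% had more and 10.8% fewer. K non-rep KO also had 17 peaks, a ratio of 3.40 (1.2 to 11.8) to the same WT list, beside 2.17 for all protein-coding genes. SREBF2, SREBF1, MBTPS1 and SCAP had more and INSIG1 had none in either; 70.4% of 11807 genes had more and 12.4% fewer. In both comparisons most of the 5 genes moved as most genes did, and the intervals hold the ratio of all genes. By covered length the ratios to WT were 1.82 for K rep KO and 1.52 for K non-rep KO, beside 1.81 and 1.64 for all protein-coding genes, so the longer lists had more but narrower peaks here. Both comparisons share the WT list, which is the shortest. With lists of equal length the ratios of peak numbers were 2.00 (0.623 to 7.46) and 2.60 (0.87 to 9.31), beside 1.18 and 1.23 for all genes. Both intervals include equal numbers. With a −log10 q of at least 5 the ratio was 3.33 for K rep KO (10 against 3 peaks), beside 2.09 for all genes. That of K non-rep KO was then 1.33 (4 against 3 peaks), beside 1.62.

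Both knockout lists held 17 peaks in the 5 genes, a ratio of 1.00 (0.480 to 2.08), beside 1.10 for all protein-coding genes. SREBF2 (6 against 4), SREBF1 (2 against 1), MBTPS1 (5 against 4) and INSIG1 (1 against 0) had more in K rep KO, and SCAP (3 against 8) fewer. Over 13227 protein-coding genes 42.9% had more in K rep KO and 33.5% fewer. The SCAP ratio of 0.375 had an interval of 0.0641 to 1.56. The control lists differed as well: EV had 20 peaks in the 5 genes and WT 5, a ratio of 4.00 (1.46 to 13.6), beside 3.82 for all protein-coding genes. All 5 genes had more peaks in EV, and so did 86.6% of 13967 genes, with 4.14% fewer. The ratio of the 5 genes was 2.20 at equal list length and 2.48 by covered length, beside 1.29 and 2.99 for all genes.

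Per 100 kb of gene region, SREBF2 had 7.67 peaks in EV, 15.3 in KD, 1.28 in WT, 5.12 in the K non-rep KO and 7.67 in the K rep KO list. The mean of this density over all protein-coding genes was 7.61, 4.73, 1.87, 4.33 and 4.83 in the same order. SREBF2 was thus near this mean of genes in EV, below it in WT and above it in the other 3 lists. With the peaks of all genes divided by their summed length, the density was 4.19 in EV and 1.095 in WT. SREBF2 was above both of these values, so its place depends on the measure. Its density was higher than that of 65.2% of genes in EV and 71.0% in WT. In these lists 31.7% and 63.3% of genes had no peak. In KD the densities of SREBF2 (15.3), SREBF1 (13.5) and MBTPS1 (13.4) were higher than those of 90.6%, 88.3% and 88.2% of genes; for SREBF2 and MBTPS1, chosen on KD peak numbers, this restates the choice. In EV SCAP had the highest density of the 5 genes (13.3), and MBTPS1 (4.47) and SREBF1 (3.37) the lowest. With so few peaks per gene, the order of MBTPS1 and SREBF1 within a list rests on 1 or 2 peaks.

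The peaks around the genes had the opposite order to that inside SREBF2 and MBTPS1. As the inside numbers chose these genes, nothing is read from this contrast. Within 1 Mb of SREBF2, outside its region, KD had 195 peaks and EV 276, a ratio of 0.707 (0.585 to 0.852). Within 1 Mb of MBTPS1 KD had 77 and EV 137, a ratio of 0.562 (0.419 to 0.748). On the rest of their chromosomes the ratios were 0.694 and 0.659. The 10 protein-coding genes nearest to SREBF2 had 24 peaks in KD and 35 in EV together (0.686, 0.390 to 1.19), and those nearest to MBTPS1 22 and 26 (0.846, 0.457 to 1.55), with intervals that include equal numbers. Within 1 Mb, KD thus had fewer peaks than EV around both genes, as it had over all peaks (ratio 0.614). Around SREBF1 the ratio within 1 Mb was 0.612, around SCAP 0.645 and around INSIG1 0.678.

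Of all 87 peaks in the 5 genes, 64 (73.6%) overlapped a peak of another list by at least 1 bp. An overlap counts for the peaks of both lists, so the peaks are not independent and no interval is given. The same share over all genes is not given here, so 73.6% is a description only. KD peaks had an EV peak over them in 14 of 28 cases (50%, against 56.6% of KD peaks over all protein-coding gene regions), and EV peaks had a KD peak in 11 of 20 (55.0%, against 32.6%). Of the 14 KD peaks with no EV peak, K rep KO overlapped 4 (28.6%, against 19.4% of such peaks over all gene regions), K non-rep KO 2 (14.3%, against 17.0%) and WT 2 (14.3%, against 6.77%). These shares rest on few peaks. Those that involve KD are not independent of how SREBF2 and MBTPS1 were chosen, by their KD and EV peak numbers. Nothing is read from them.

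The pathway was widened to 80 genes in 6 groups, of which 12 genes had no peak in any list. Together they had 294 peaks in EV, 182 in KD, 70 in WT, 170 in the K non-rep KO and 175 in the K rep KO list. In KD against EV, 11 genes had more peaks, 37 fewer and 17 equal numbers, and the ratio was 0.619 (0.512 to 0.747). Of the pathway genes with a peak in either list, 16.9% had more and 56.9% fewer, beside 14.4% and 67.0% of all protein-coding genes. Outside the 5 genes, 8 (13.3%) had more and 35 (58.3%) fewer, with a ratio of 0.562, close to the 0.587 of all protein-coding genes. The median log2((peaks + 1)/(peaks + 1)) was −0.52 over the 60 of these with a peak, and −0.58 over all protein-coding genes with one. With both lists at the same length the ratio of the pathway was 0.953, beside 0.956 for all genes.

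The other genes of the processing machinery were MBTPS2, with 1 peak in EV, 3 in KD, 2 in WT, 3 in the K non-rep KO and 2 in the K rep KO list, and INSIG2, with 1 peak in KD and 1 in WT. Both had more peaks in KD than in EV, by 2 peaks and by 1 peak, as had 14.4% of protein-coding genes with a peak in either list. Together the pair had 4 peaks in KD and 1 in EV, with an interval of the ratio (0.396 to 197) that includes equal numbers. MBTPS2 and INSIG2 are named as the remaining machinery genes, outside the rule for named genes. Regulators of SREBP and of sterol-controlled protein turnover had 11 peaks in KD and 28 in EV, with 1 gene higher and 5 lower. Most of that difference lay in USP20, a deubiquitinase, with 12 peaks in EV and 2 in KD. The gene with more KD peaks was SPRING1, known to help the site-1 protease mature, with 3 in KD and 1 in EV. It falls outside the rule for named genes and was chosen after its values were seen.

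Cholesterol synthesis enzymes had 16 peaks in KD and 29 in EV, with 1 gene higher and 7 lower, and 7 of these 22 genes had no peak in any list. Fatty acid and lipid synthesis targets had 49 and 92, with none higher and 9 lower of 11 with a peak. Among them were ACACB, which makes malonyl-CoA at mitochondria (7 in KD and 19 in EV), AACS, which activates acetoacetate (8 and 18), and FASN, the fatty acid synthase (7 and 9). Uptake, transport and efflux genes had 63 and 110, with 3 higher and 12 lower. Among those were SCARB1, the HDL receptor (16 and 24), and LRP1, an endocytic receptor (5 and 15). Other substrates of the site-1 protease had 11 and 14 peaks, with 1 higher and 2 lower. Among the genes of each group with a peak in either list, 28.6% to 81.8% had fewer peaks in KD and 0% to 16.7% more, in these groups and the regulators, beside 67.0% and 14.4% of all genes.

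Against WT, the pathway had more peaks in K rep KO in 42 genes and fewer in 6 (ratio 2.50, 1.88 to 3.35), and more in K non-rep KO in 46 and fewer in 6 (2.43, 1.83 to 3.26). Cholesterol synthesis enzymes had 18 peaks in K rep KO, 21 in K non-rep KO, but 5 in WT. ACACA, which makes malonyl-CoA in the cytosol, had 8 in either knockout and 3 in WT. Between the knockouts 20 genes had more in K rep KO and 24 fewer (ratio 1.03, 0.829 to 1.28). EV had more peaks than WT in 57 genes and fewer in 5 (ratio 4.20, beside 3.82 for all protein-coding genes). Of pathway genes with a peak in either list these were 90.5% and 7.94%, beside 86.6% and 4.14% of all genes. In shares of the pathway genes with a peak in either list, 75% had more and 10.7% fewer in K rep KO than in WT (all genes 73.5% and 10.8%), and 83.6% more and 10.9% fewer in K non-rep KO than in WT (70.4% and 12.4%). Between the knockouts 34.5% had more and 41.4% fewer in K rep KO, in the opposite order to all genes (42.9% and 33.5%).

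**Figure D5:**
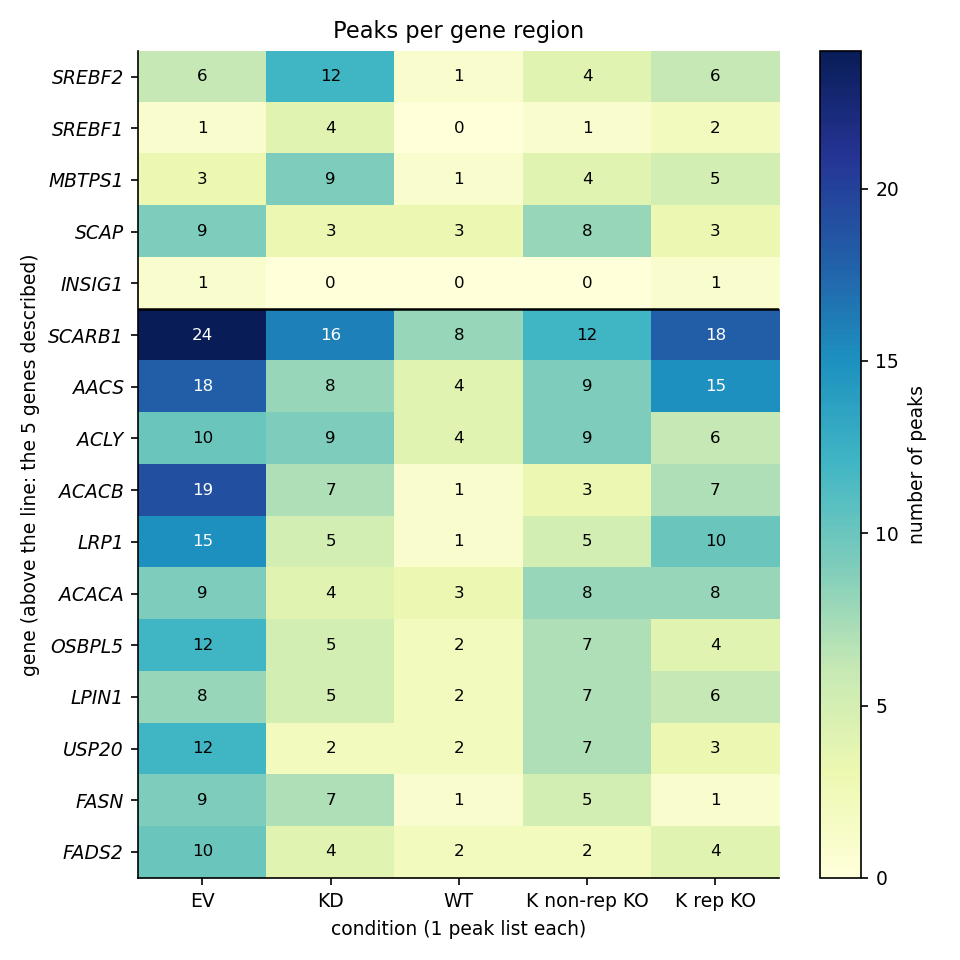
Number of peaks in each list (columns) for the 5 genes, above the line, and for 11 other genes of the pathway, taken from the 15 with the most peaks, below it; darker cells hold more peaks and each number is a count. Every gene below the line has fewer peaks in KD than in EV, as do 67.0% of protein-coding genes with a peak in either list. SREBF2, SREBF1 and MBTPS1 have more, and SREBF2 and MBTPS1 were chosen for that. Genes below the line were taken by their total, to which EV gave the most peaks, so nothing is read from the contrast.

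The genes whose peak numbers over the 5 lists were most like those of SREBF2, by the Euclidean distance of log2(peaks + 1), were PTAFR, DPP8, MISP, ADK and UMODL1. PTAFR, the receptor of platelet-activating factor, was nearest at 0.408, with 6 peaks in EV, 11 in KD, 1 in WT, 3 in the K non-rep KO and 5 in the K rep KO list. The others lay at 0.596 to 0.615. Most like MBTPS1 were CFAP20DC, TBL3, PIGG, CEP89 and WDR97, at 0.416 to 0.659. CFAP20DC was nearest, with 3, 9, 1, 3 and 4 peaks in the same order of lists. None of these 10 genes belongs to the pathway list. Outside the 5 genes that list holds only 75 of the 19974 protein-coding genes, so nothing is read from this.

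None of the 5 genes had a peak over its start region in any list. Over 15812 start regions of protein-coding genes a peak was found for 4.44% in EV, 2.73% in KD, 0.74% in WT, 2.15% in the K non-rep KO and 2.64% in the K rep KO list, and 6.74% had one in any list, so a start region without a peak is the common case. Of 59 other pathway genes with a start region in the table, 1 had a peak, FADS2, a fatty acid desaturase, in EV, WT and K non-rep KO. The start regions held 31 CpG in SREBF2, 28 in SREBF1, 36 in MBTPS1, 36 in SCAP and 48 in INSIG1, all above the median of 22. From the SREBF2 start region the nearest peak was 16676 bp away in EV, 2177 bp in KD, 17170 bp in WT, 10614 bp in the K non-rep KO and 5096 bp in the K rep KO list. From that of SCAP it was 1682 to 1739 bp away in every list; the tabulated start of SCAP lies inside the outermost gene boundary. KD thus had a peak nearest to the SREBF2 start, and none of the lists reached the sterol regulatory element shown above. That KD peak was weak, with a fold enrichment of 3.42, 7 fragments and a −log10 q of 2.03, and no other list had it. The distance is also not independent of the KD peak number by which SREBF2 was chosen.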

How the data were processed

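MeDIP-seq peaks of HEK293T cells were analysed in 5 conditions. The authors used MACS2 after Bowtie2, with deepTools and GRCh38, per the submitters' processing notes; versions, settings, the caller's control and any pooling: not given in the sources used here. Each condition has 1 deposited narrowPeak list, each peak with a fold enrichment (a ratio at the summit), a −log10 p-value, a −log10 q-value and a summit position. The deposited lists whose peak names carry other prefixes than the list (K rep KO and its non-rep counterpart) were assigned by the list's name, and the list named K-KD was taken as KD. Left out of every step was 1 further list, whose name fits no sample label.

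Peaks on other sequences than chromosomes 1 to 22 and X were left out (3.56% to 5.83% of a list). Genes came from a RefSeq table of GRCh38.p14, and a peak was counted for a gene when at least 1 bp overlapped the body or 2 kb on both sides. Exons and introns were not analysed here. Fragments at a summit were solved from fold, as (fragments + 1)/(background + 1), and the −log10 p as an upper Poisson tail, which gave a whole number within 0.001 for 99.99% to 100.0% of peaks on the genes' chromosomes; intervals cover counting error only and, as neighbouring peaks are not independent, are too narrow. The 5 genes, the 80 pathway genes and the comparisons were chosen with earlier results of these data known. Named genes are the 5 genes, the 15 pathway genes with the most peaks (1 of them is not reported here), the genes at the threshold of 2 times, and the 5 genes nearest in pattern to SREBF2 and to MBTPS1. Counting was tested on simulated peaks. Alternatives were thresholds of −log10 q (5) and fold (4), lists of equal length, gene body alone, summit inside the region, covered bp, and peaks under 1 kb apart joined. Python 3.11.15, pandas 2.3.3, numpy 2.4.6, scipy 1.17.1 and matplotlib 3.10.9 were used.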

Additional observations from a re-analysis of the deposited data

Results flagged for a closer look

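SCAP moved in opposite directions in KD against EV and in K non-rep KO against WT. All protein-coding genes together did so too, with ratios of 0.587 and 2.17, and had 2.40 in K rep KO against WT. For SCAP the log2((peaks + 1)/(peaks + 1)) was −1.32 in the first (3 against 9 peaks) and 1.17 in the second (8 against 3), a difference of 2.49. The intervals of both SCAP ratios include equal numbers (0.058 to 1.34 and 0.64 to 15.6). EV and K non-rep KO each count an upstream peak that lay just outside the 2 kb limit in the other lists. INSIG1 likewise had −1.0 in KD against EV (0 against 1 peak) and 1.0 in K rep KO against WT (1 against 0), a difference of 2.0. With 1 list per condition neither difference was tested, and that of INSIG1 rests on a single peak in each comparison.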

How the results depend on the processing

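For the 5 genes, KD had fewer peaks than EV with a −log10 q of at least 5 (ratio 0.462), with a fold enrichment of at least 4 (0.933) and by covered bp (0.835). On the log2 scale SREBF2 then stood at −0.74, −0.26 and −0.24, and MBTPS1 at −0.58 with the first threshold. Equal list length, gene body alone, summit inside the region and joined peaks kept the direction. The pathway's KD to EV ratio was 0.333 with the q threshold and 0.953 at equal list length, beside 0.412 and 0.956 for all protein-coding genes. At equal length its ratio to WT was 1.26 for K rep KO, 1.37 for K non-rep KO and 1.41 for EV. All protein-coding genes had 1.18, 1.23 and 1.29 there. By covered bp the pathway had 1.67 for K non-rep KO, beside 1.64 for all genes. Between the knockouts the q threshold gave 2.5 for the 5 genes and 1.31 for the pathway, beside 1.29 for all genes. The pathway had 0.947 at equal length and 0.994 with gene bodies alone, on the other side of 1. All genes had 0.997 and 1.11 with these settings. The cause of these changes was not tested. Of the other ratios recomputed for the 5 genes and the pathway, 57 lay within the counting interval of the value given in the report; the ratio of 1 between the knockouts for the 5 genes has no direction, and its values among these ran from 0.882 to 1.2. No paired analysis was possible because each condition has 1 list. No fragment totals are given, so weak peaks cannot be set against depth, and a missing peak does not show that methylation is absent.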
